A study of Homo sapiens with 9 samples.

Results

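The nuclear genes for proteins of the mitochondrial ribosome were followed through HCC827 cells that expressed hairpin G1, hairpin G7 or the control hairpin NS. Members were the protein-coding genes of GENCODE release 29 whose symbol is MRPL or MRPS and a number, with an optional letter from A to C. They numbered 78 of the 60675 rows in the count table, 49 named for the large subunit and 29 for the small subunit. HCC827 is an established human lung adenocarcinoma line with an activating EGFR mutation. G1 and G7 are short hairpin RNAs against CBX5, which encodes heterochromatin protein HP1 alpha, and NS is a control short hairpin RNA. All 3 groups stably expressed a hairpin and grew in DMEM with serum, and each group had 3 libraries of poly-A RNA. The series text calls the libraries of a group biological replicates. The labels do not say whether they came from separate transductions, so the p-values measure the spread between these libraries.

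The mitochondrial ribosome makes the few proteins that mitochondrial DNA encodes, all of them membrane subunits of the respiratory chain and ATP synthase. Its large subunit joins amino acids and holds the exit tunnel, and its small subunit binds the messenger RNA and decodes it. Its RNA comes from the mitochondrial genome, while its proteins are encoded in the nucleus, made in the cytosol and imported. Some are relatives of bacterial ribosomal proteins and carry their numbers, and others are found in mitochondria only.

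Library totals ran from 12701561 to 22372353 counts, and 13264 genes passed the filter on low counts and were tested. CBX5 had 142 to 143 CPM with G1, 201 to 204 CPM with G7 and 361 to 377 CPM with NS, where CPM is the usual count relative to library size, scaled by TMM (trimmed mean of M values). Of 9 epithelial and lung adenocarcinoma markers, 7 exceeded 10 CPM, and NKX2-1 and NAPSA were listed at 0. They summed to 14673 to 14925 CPM with G1, 12584 to 13186 CPM with G7 and 10719 to 11634 CPM with NS. This sum is ordered over the groups like many members below, and its part in their results was not tested. Most of it was KRT8, KRT18 and KRT19, and the means of EPCAM and KRT7 had the same order. EGFR averaged 969 ± 36.4 CPM with G1, 1098 ± 39.4 CPM with G7 and 1054 ± 32 CPM with NS (SD, n = 3). CDH1 averaged 385 ± 7.46, 344 ± 7.56 and 351 ± 11.4 CPM, and neither gene followed that order. The 5 leukocyte markers summed to at most 0.706 CPM in any library. The 5 fibroblast markers summed to 13.3 to 15.9 CPM with G1, 13.2 to 14.7 CPM with G7 and 14.7 to 14.8 CPM with NS, nearly all of it COL1A1. The 4 endothelial markers summed to 71.2 to 76.9 CPM with G1, 85.8 to 92.5 CPM with G7 and 84.2 to 92.8 CPM with NS, nearly all of it PECAM1 and CDH5. CPM are relative values, and in bulk RNA fewer cells of a kind and less RNA per cell cannot be told apart.

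Promoter sequence was available for 69 members, from RefSeq on GRCh38.p14, and was read from 250 bases before to 50 bases after the start of transcription. Motifs were searched on both strands in the 58 members with 1 start and in 6826 tested genes with 1 start. The ETS motif CCGGAAG, which GABPA (also called NRF2 alpha) binds, occurred in 43.1% of the members and in 20.7% of the tested genes. Of its 33 matches in members, 19 lay in the last 50 bases before the start, against 685 of 1760 matches in the tested genes. The YY1 motif AAGATGGC occurred in 31% of the members and in 6.09% of the tested genes, and 15 of its 19 matches in members lay at or after the start. YY1 is a zinc finger factor that binds many genes of mitochondrial function.

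The other motifs searched were no more frequent in members than in tested genes. The palindromic motif of NRF1 (nuclear respiratory factor 1) was present in 10.3% of the members and 12.4% of the tested genes. The E-box CACGTG occurred in 8.62% and 10.2% of them, and the E2F motif GGCGGGAA in 3.45% and 5.36%, members first. The GC box GGGCGG of SP1 was in 56.9% of the members and 72.5% of the tested genes. CCAAT, for NF-Y, was in 27.6% of the members and 37% of the tested genes, and TATAAA in 3.45% of the members and 5.35% of the tested genes. Among members that were higher with G1, 15 of 34 held the ETS motif, and among members not called with G1, 5 of 14 did. The GC box was in 22 of these 34 and 4 of these 14, CCAAT in 11 and 4, and the YY1 motif in 10 and 6. These differences were not tested. A match is a string of letters and not a bound site.

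The stretches below lie before the start of 6 members described in the following paragraphs and outside annotated exons. The sequences are from RefSeq, GRCh38.p14, written 5′ to 3′ on the strand of the gene. MRPL3 (chr3:131502984-131503103, minus strand), MRPS31 (chr13:40771191-40771310, minus), MRPL58 (chr17:75012550-75012669, plus), MRPS18A (chr6:43687792-43687911, minus) and MRPS34 (chr16:1773156-1773206, minus) show the ETS motif close to the start. MRPL36 (chr5:1799896-1800015, minus) shows the NRF1 motif, and its stretch lies before the RefSeq start but inside the longer gene span of GENCODE. Capitals mark CCGGAAG and its reverse complement CTTCCGG, the GC box or its reverse complement CCGCCC, and in MRPL36 the NRF1 motif.
MRPL3: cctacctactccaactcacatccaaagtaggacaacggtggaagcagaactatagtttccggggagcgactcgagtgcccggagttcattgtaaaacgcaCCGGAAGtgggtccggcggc
MRPS31: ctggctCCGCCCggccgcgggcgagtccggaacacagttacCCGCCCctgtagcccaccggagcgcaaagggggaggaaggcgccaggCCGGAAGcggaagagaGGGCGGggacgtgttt
MRPL58: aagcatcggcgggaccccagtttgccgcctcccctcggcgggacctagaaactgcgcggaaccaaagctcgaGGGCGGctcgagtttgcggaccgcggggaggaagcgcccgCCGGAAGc
MRPS18A: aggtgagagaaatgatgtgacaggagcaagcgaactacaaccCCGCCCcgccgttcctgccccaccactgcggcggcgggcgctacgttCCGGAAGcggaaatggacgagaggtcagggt
MRPS34: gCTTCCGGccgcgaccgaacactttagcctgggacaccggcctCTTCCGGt
MRPL36: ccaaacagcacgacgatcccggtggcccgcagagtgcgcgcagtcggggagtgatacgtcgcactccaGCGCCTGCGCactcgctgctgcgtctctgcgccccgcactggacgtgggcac

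Of the 78 members, 64 were tested, 41 of the large and 23 of the small subunit. The other 14 were listed at 0 counts in all 9 libraries. They were MRPL2, MRPL12, MRPL30, MRPL34, MRPL38, MRPL40, MRPL49 and MRPL53 of the large subunit, and MRPS6, MRPS11, MRPS12, MRPS16, MRPS17 and MRPS24 of the small subunit. For counting error alone, a 0 allows a level of up to 3 counts in a library, or 0.134 to 0.236 CPM by library without TMM scaling. The list includes MRPL12, the stalk protein that recruits translation factors, and MRPS12, a protein of the decoding centre, which every mitochondrial ribosome contains. These zeros are therefore reported as listed values and not as absence of expression.

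The zeros fell almost entirely on members whose exons overlap those of another annotated gene. Among the 41 members with such overlap, 13 were listed at 0, 8 lay between 0.83 and 4.48 CPM on average and 20 lay between 17.6 and 133 CPM. Among the 37 members with none, 36 lay between 11.2 and 166 CPM and only MRPL40 was listed at 0, whose gene span but no exon overlaps a neighbour. By gene span, 14 of 49 overlapping members and 0 of 29 others were at 0. The same held for other housekeeping sets, with 10 of 47 overlapping and 0 of 28 other nuclear subunits of oxidative phosphorylation (OXPHOS) at 0, and 8 of 61 overlapping and 0 of 18 other cytosolic ribosomal proteins. Over all protein-coding rows, which include silent genes, the shares at 0 were 22.9% with and 20.5% without overlap. How the counting treated overlapping features and strand is not given in the sources used here, and its part in the zeros was not tested.

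**Figure D1:**
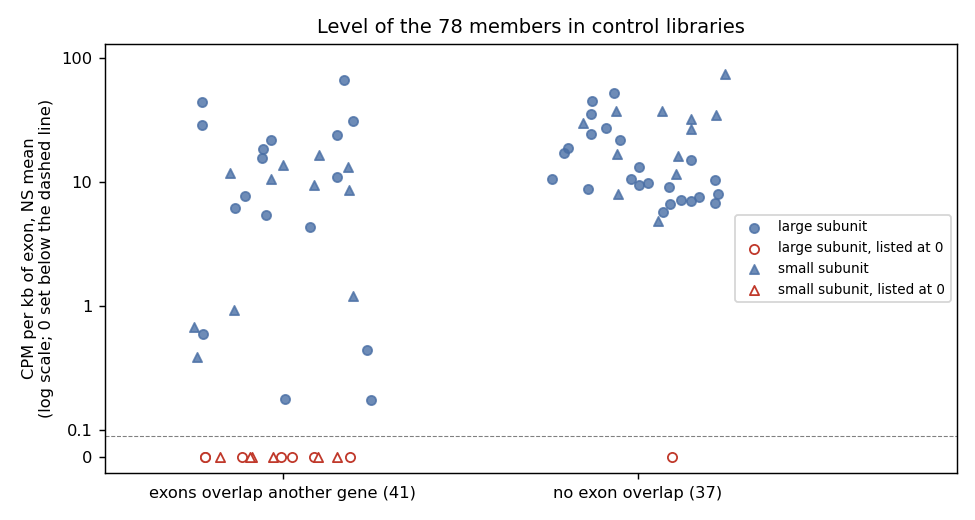
Mean level of each of the 78 members in NS libraries, in CPM per kilobase of exon on a log axis, by whether any exon overlaps another annotated gene. All 14 members listed at 0 (open symbols under the dashed line) but 1 are in the group with overlap. So are all 8 members whose mean over the 9 libraries was 0.83 to 4.48 CPM, which lie at 0.175 to 1.21 on this axis.

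The 8 low members were MRPL4, MRPL19, MRPL23, MRPL46, MRPS2, MRPS18C, MRPS25 and MRPS28, and they are reported as uncertain. Whether overlap lowers their counts was not tested, and 20 other members with overlapping exons lay at 17.6 to 133 CPM. MRPL19, for example, overlaps GCFC2 on the opposite strand, and MRPS25 overlaps NR2C2. Their standard errors (SE) in G1 minus NS ran from 0.181 to 0.378 on the log2 scale, against 0.043 to 0.104 for the 56 members of at least 10 CPM. The median coefficient of variation between libraries of a group was 20% in the low members and 4.39% in the others. Annotated pseudogenes, which can take reads from their parent, numbered 75 for 34 members. They held 400 counts in all libraries together, against 438925 for the members. Of these, 329 lay on pseudogenes of MRPL45 and 40 on those of MRPS17, itself listed at 0. The read filters are not given, so these counts do not measure how many reads the parents lost.

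Levels per length in NS libraries spanned a wide range. Among large subunit genes, MRPL51 (chromosome 12, 6491886 to 6493841), a mitochondria-specific protein, led with 66.4 ± 1.5 CPM per kilobase of exon (SD, n = 3). MRPL3 (chromosome 3, 131462212 to 131502983), a core protein with a bacterial relative, followed with 52.3 ± 3.22. MRPL45, at 44.8 ± 2.38, and MRPL37, at 44.5 ± 0.305, came next and did not differ beyond their spread. The lowest tested were MRPL19, at 0.178 ± 0.0428, and MRPL4, at 0.175 ± 0.0789, which are among the members with overlapping exons.

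Among small subunit genes, MRPS35 (chromosome 12, 27710773 to 27756295) was highest per length in NS libraries, at 74.1 ± 2.9 CPM per kilobase. MRPS10 and MRPS15 followed with 37.6 ± 1.47 and 37.6 ± 0.748, a difference smaller than their spread. The lowest tested were MRPS28, at 0.678 ± 0.0114, and MRPS25, at 0.386 ± 0.0338. Most others of the small subunit lay between 4.88 and 34.6 CPM per kilobase.

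Hairpin G1 was compared with NS to ask how mitochondrial ribosome genes behaved with the deeper loss of CBX5 RNA. Most large subunit genes and 12 of 23 small subunit genes rose by modest amounts, and the difference between the subunits was not tested. A gene was called where the Benjamini-Hochberg adjusted p over all 13264 genes was under 0.05 in the quasi-likelihood test of edgeR. Of 41 tested large subunit genes, 32 were higher (78%), only MRPL10 was lower and 8 were not called, with a median log2 change of 0.37, or 1.29-fold. Of 23 tested small subunit genes, 12 were higher (52.2%), 0 were lower and 11 were not called, with a median of 0.14, or 1.11-fold. The share called among all genes was 59.1%, with 30.4% higher and 28.7% lower and a median of -0.01. In this TMM-scaled fit no small subunit gene was lower at an unadjusted p under 0.05 either, nor was any called lower in DESeq2. With upper quartile scaling, which also moved the calls over all genes to 3066 higher and 4815 lower, the counts were 27 higher and 1 lower for the large and 8 higher and 4 lower for the small subunit.

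In 32 of 41 large and 13 of 23 small subunit genes, all 3 G1 libraries lay above all 3 NS libraries, against 32.5% of all genes tested. The reverse held in 1 large and 1 small subunit gene, MRPL10 and MRPS18B, against 31.6% of all genes. The changes were small in size, and 0 of the 64 tested members differed by more than 2-fold with either hairpin.

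**Figure D2:**
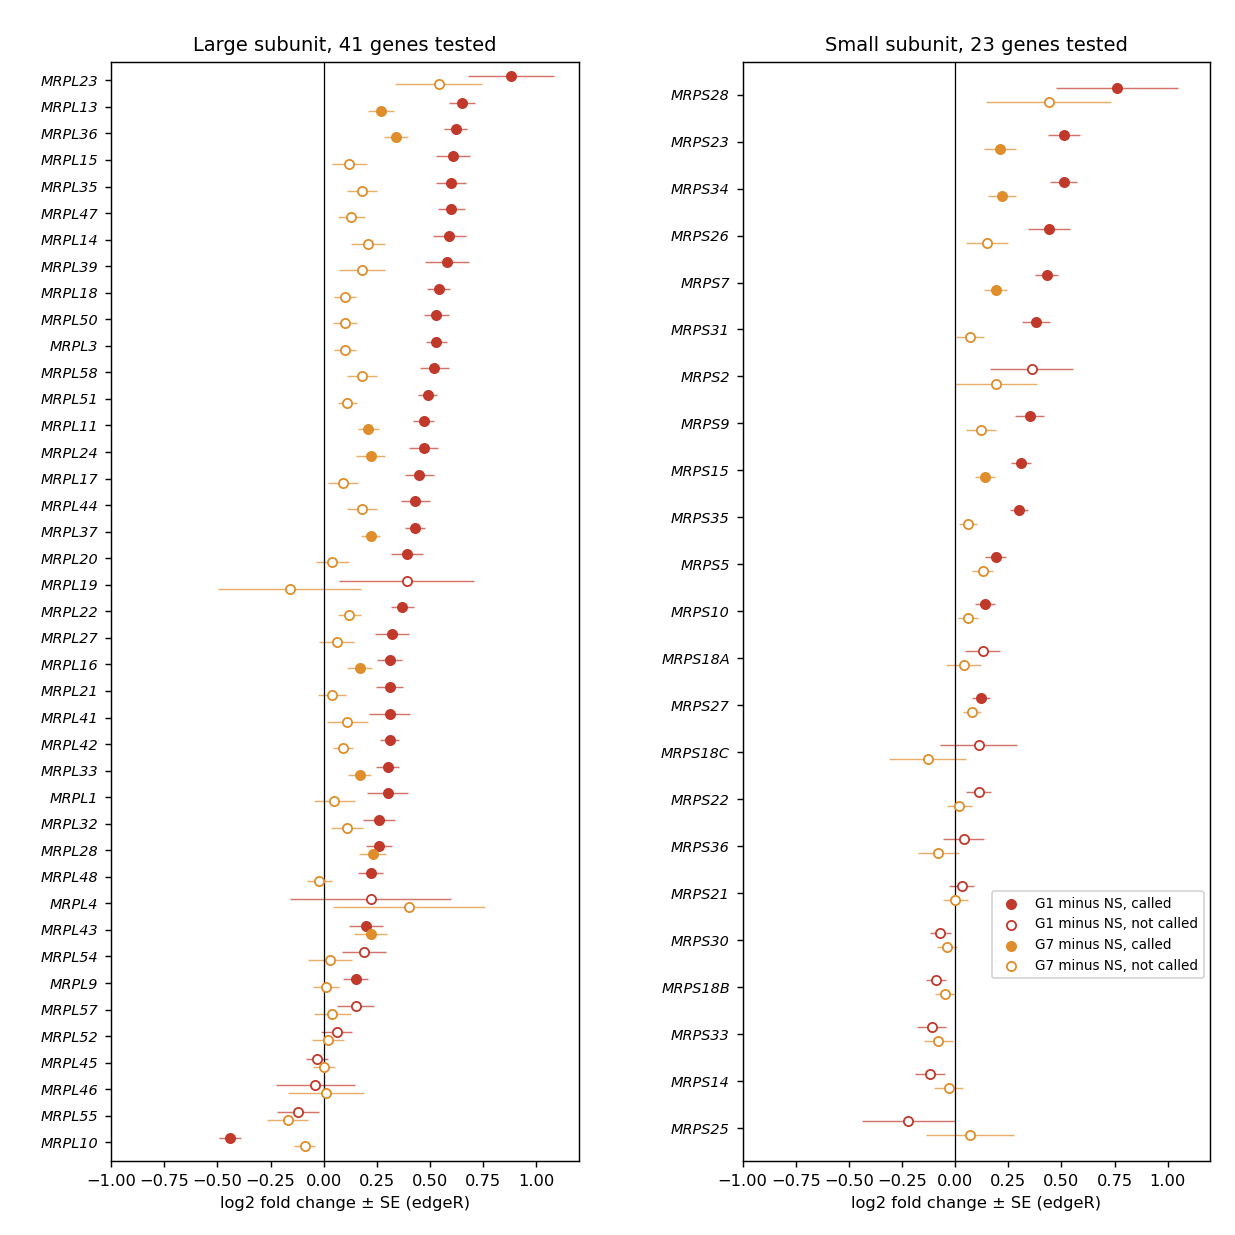
Log2 fold change ± SE of each tested member (41 large subunit genes left, 23 small subunit genes right), G1 minus NS in red and G7 minus NS in orange, filled where called. With G1, 32 large and 12 small subunit genes are called higher and MRPL10 alone is called lower, and with G7 the points lie closer to 0, with 9 and 4 called higher.

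MRPL36 (ENSG00000171421, chromosome 5, 1798386 to 1801366), a short zinc-binding protein related to bacterial L36, was the clearest rise of the large subunit. It had 45.2, 48.6 and 47.6 CPM in G1 libraries, 38.9, 38.1 and 39.6 CPM in G7 libraries, and 30.5, 30.8 and 30.9 CPM in NS libraries. The 3 groups did not overlap, with G1 highest and NS lowest. Its log2 change was 0.62 ± 0.056 (SE) in G1 minus NS, at adjusted p = 2.47e-08 in the edgeR test. It was 0.34 ± 0.056 in G7 minus NS, at adjusted p = 0.000267, and 0.28 ± 0.053 in G1 minus G7, at adjusted p = 0.000296.

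MRPL13 (ENSG00000172172, chromosome 8, 120380761 to 120445402), a core protein with a bacterial relative, followed the same order. It had 70.1, 75.5 and 69.6 CPM with G1, 58.2, 52.5 and 54.4 CPM with G7, and 49.4, 45.6 and 42.5 CPM with NS. No library of one group reached into another. The log2 change was 0.65 ± 0.061 in G1 minus NS (edgeR adjusted p = 4.27e-08) and 0.27 ± 0.062 in G7 minus NS (adjusted p = 0.00428). Its exons overlap those of MTBP on the opposite strand, so its counts carry that uncertainty.

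Other large subunit genes were higher with G1 and close to NS with G7. MRPL15 (chromosome 8, 54135210 to 54147901), a core protein of the bacterial type, had 27.4, 28 and 27.7 CPM with G1, 20.5, 21.3 and 17.5 CPM with G7, and 19.5, 17.7 and 17.3 CPM with NS. G1 stood above the rest, and the G7 and NS libraries overlapped. MRPL15 differed by 0.61 ± 0.080 in G1 minus NS (edgeR adjusted p = 2.83e-06), by 0.12 ± 0.082 in G7 minus NS (adjusted p = 0.321) and by 0.49 ± 0.076 in G1 minus G7 (adjusted p = 3.93e-05).

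MRPL47 (chromosome 3, 179588285 to 179604654), the counterpart of bacterial L29, had 60.5, 69 and 65.3 CPM with G1, 45.6, 44.3 and 50.6 CPM with G7, and 42.3, 45.1 and 41.2 CPM with NS. It also overlapped between G7 and NS, and its log2 difference was 0.60 ± 0.064 in G1 minus NS and 0.47 ± 0.062 in G1 minus G7 (edgeR adjusted p = 2.40e-07 and 6.57e-06). Among the most abundant members, MRPL3 had 201, 200 and 212 CPM with G1, 146, 149 and 162 CPM with G7, and 140, 151 and 134 CPM with NS. MRPL51 averaged 144 ± 5.14 CPM with G1, 111 ± 3.75 CPM with G7 and 103 ± 2.32 CPM with NS (SD, n = 3 each). MRPL3 rose by 0.53 and MRPL51 by 0.49 on the log2 scale in G1 minus NS, and neither was called in G7 minus NS. On the opposite strand, exons of MRPL47 overlap those of ACTL6A and exons of MRPL51 those of NCAPD2, so their counts carry that uncertainty. NCAPD2 itself rose by 0.89 in G1 minus NS.

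MRPL58 (chromosome 17, 75012670 to 75021261) is a peptidyl-tRNA hydrolase that rescues stalled ribosomes and is built into the large subunit. It had 28.9, 30.5 and 29.6 CPM with G1, 23.2, 23 and 24.1 CPM with G7, and 19, 22.2 and 21 CPM with NS. The groups did not overlap, and the log2 change was 0.52 ± 0.069 in G1 minus NS (edgeR adjusted p = 3.95e-06) and 0.18 ± 0.070 in G7 minus NS (adjusted p = 0.0779). MRPL23, a protein at the tunnel exit, had the highest log2 change, 0.88 ± 0.201 in G1 minus NS (adjusted p = 0.000975). It rests on 2.67, 4.11 and 2.95 CPM with G1 and 1.96, 1.72 and 1.67 CPM with NS, and its exons overlap MRPL23-AS1 on the opposite strand.

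MRPL10 was the exception of the large subunit. MRPL10 (ENSG00000159111, chromosome 17, 47823272 to 47831534) anchors the MRPL12 copies of the stalk. It had 51.6, 49.2 and 48.1 CPM with G1, 63.1, 65.6 and 60.8 CPM with G7, and 67.6, 68 and 66 CPM with NS. All G1 libraries lay below all others, and G7 lay just below NS. MRPL10 fell by 0.44 ± 0.051 on the log2 scale in G1 minus NS, to 0.739-fold, at adjusted p = 6.80e-07 in the edgeR test. In G7 minus NS its log2 change was -0.09 ± 0.049 (adjusted p = 0.209). Its partner MRPL12 was listed at 0 and gives no value.

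The remaining large subunit genes called with G1 rose by 0.15 to 0.60. They ranged from MRPL9, with 37 ± 1.01 CPM with G1 and 33.4 ± 1.99 CPM with NS, to MRPL35, with 46.7 ± 3.07 CPM with G1 and 30.9 ± 2.77 CPM with NS. The G1 minus NS calls of MRPL9 and MRPL43 ended under 6 alternatives each, DESeq2 among them. That of MRPL1 ended under 3, that of MRPL41 under 2 and that of MRPL48 under 1. The 8 not called were MRPL4, MRPL19, MRPL45, MRPL46, MRPL52, MRPL54, MRPL55 and MRPL57. MRPL45, which sits at the tunnel exit and faces the inner membrane, had 75.1 ± 3.31 CPM with G1, 76.4 ± 2.31 CPM with G7 and 76.3 ± 4.06 CPM with NS. It is one of the most abundant members per length, so its log2 difference of -0.03 in G1 minus NS was measured with many reads.

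**Figure D3:**
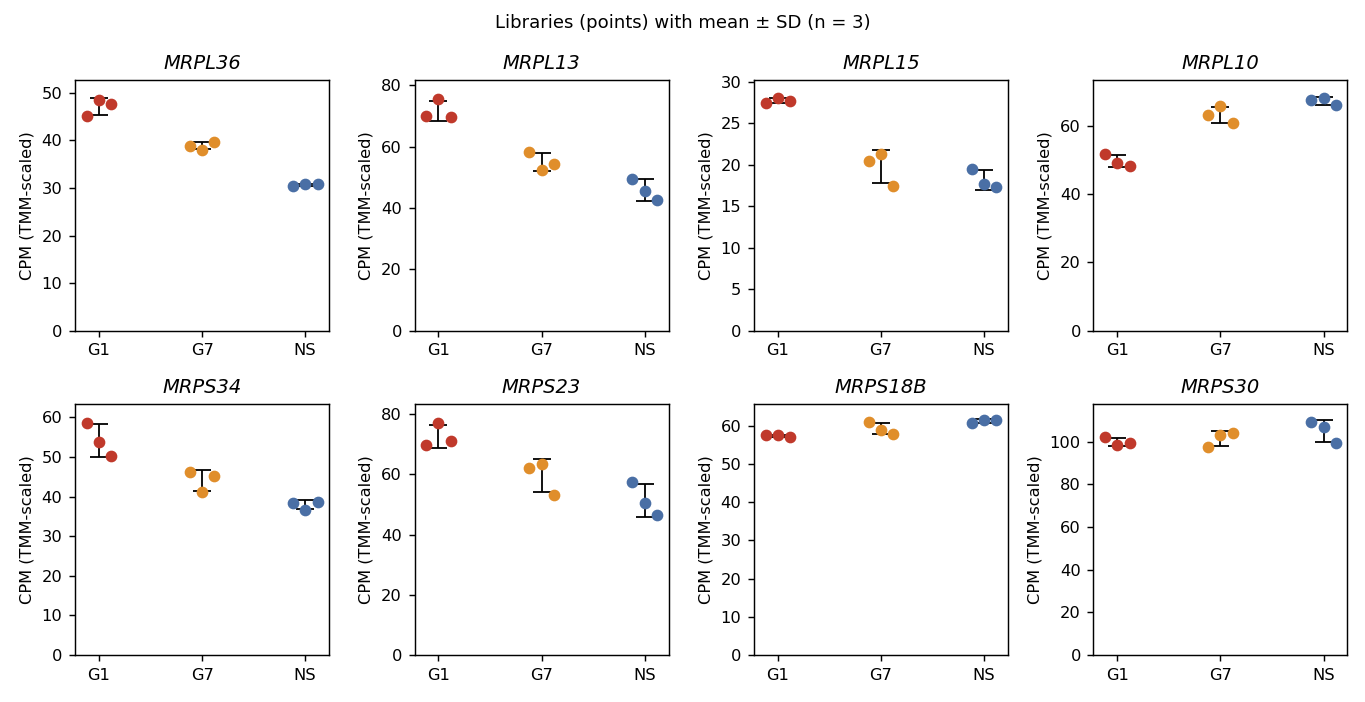
TMM-scaled CPM of 8 members in each library (points) with mean ± SD (n = 3), G1, G7 and NS from left to right and each axis starting at 0. MRPL36, MRPL13 and MRPS34 step down over the 3 groups, MRPL15 is high with G1 only, MRPL10 is low with G1, and MRPS18B and MRPS30 hardly vary.

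The 12 small subunit genes called higher with G1 rose by 0.12 to 0.76, and the 11 not called had log2 changes of -0.22 to 0.36. MRPS34 (ENSG00000074071, chromosome 16, 1771890 to 1773155), a mitochondria-specific protein needed for a stable small subunit, had 58.7, 53.7 and 50.2 CPM with G1, 46.2, 41.1 and 45.1 CPM with G7, and 38.5, 36.7 and 38.7 CPM with NS. The 3 groups did not overlap. Its log2 change was 0.51 ± 0.065 in G1 minus NS (edgeR adjusted p = 1.93e-06), 0.22 ± 0.065 in G7 minus NS (adjusted p = 0.0206) and 0.29 ± 0.062 in G1 minus G7 (adjusted p = 0.000816).

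MRPS7 (chromosome 17, 75261674 to 75266373), a protein of the head of the small subunit, behaved alike. It had 47.1, 47.5 and 46.3 CPM with G1, 40.7, 39.7 and 39.3 CPM with G7, and 35.9, 34.5 and 34.5 CPM with NS, without overlap. Its log2 change was 0.43 ± 0.053 in G1 minus NS and 0.19 ± 0.053 in G7 minus NS (edgeR adjusted p = 1.65e-06 and 0.0142). Exons of MRPS7 overlap those of GGA3 and MIF4GD on the opposite strand. MRPS23 had 69.9, 77.1 and 71.2 CPM with G1, 62, 63.5 and 53.2 CPM with G7, and 57.4, 50.4 and 46.5 CPM with NS. G1 stood above NS, while G7 and NS overlapped, and the log2 change was 0.51 ± 0.075 in G1 minus NS (adjusted p = 1.25e-05) and 0.21 ± 0.075 in G7 minus NS (adjusted p = 0.0481).

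MRPS26 and MRPS31, both specific to mitochondria, were higher with G1 and not called with G7. MRPS26 averaged 41.4 ± 3.63 CPM with G1, 34 ± 3.61 CPM with G7 and 30.4 ± 4.93 CPM with NS, a log2 change of 0.44 in G1 minus NS (edgeR adjusted p = 0.000848). MRPS31 had 32.4, 31.6 and 32.5 CPM with G1, 24.7, 26.9 and 26.5 CPM with G7, and 24.2, 26.3 and 23.9 CPM with NS. Its log2 difference was 0.38 in G1 minus NS and 0.31 in G1 minus G7 (adjusted p = 6.14e-05 and 0.000537). MRPS35, MRPS15 and MRPS10, the most abundant per length, rose by 0.30, 0.31 and 0.14 in G1 minus NS. MRPS28 had a log2 change of 0.76 at 2.06 ± 0.549 CPM with G1 and 1.23 ± 0.0206 CPM with NS (adjusted p = 0.0294), and that call ended under 7 alternatives. The G1 minus NS calls of MRPS10 and MRPS27 ended under 3 each and that of MRPS5 under 1.

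The symbols do not always give the place of the protein. MRPS18A and MRPS30 sit in the large subunit of the assembled human ribosome, and MRPS36 is a subunit of the oxoglutarate dehydrogenase complex instead. None of these was called with either hairpin under TMM scaling, and MRPS30 became a lower call with G1 under upper quartile scaling. MRPS30 had 102, 98.4 and 99.4 CPM with G1, 97.6, 103 and 104 CPM with G7, and 109, 107 and 99.1 CPM with NS, overlapping throughout. MRPS18A averaged 18.6 ± 0.565, 17.4 ± 1.61 and 17 ± 0.933 CPM with G1, G7 and NS, and MRPS36 averaged 25.5 ± 3.53, 23.7 ± 2.7 and 24.9 ± 1.62 CPM in the same order.

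The 3 relatives of bacterial S18 did not pass the test in any comparison. MRPS18B had 57.6, 57.6 and 57.2 CPM with G1, 61, 59 and 58 CPM with G7, and 60.8, 61.5 and 61.7 CPM with NS. G1 lay just below NS, with a log2 difference of -0.09 ± 0.047 (edgeR adjusted p = 0.0974), and upper quartile scaling made it a lower call. MRPS18C averaged 4.84 ± 1.2 CPM with G1, 4.11 ± 0.787 CPM with G7 and 4.51 ± 0.58 CPM with NS. With MRPS18A and MRPS30 counted as large and MRPS36 left out, 32 of 43 large and 12 of 20 small subunit genes were higher in G1 minus NS, at medians of 0.32 and 0.24.

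The numbers in the symbols, a rough guide to evolutionary origin, were also set against the calls, beside 30.4% higher and 28.7% lower over all genes tested. Genes were split by symbol alone. MRPL47, a counterpart of a bacterial protein, therefore fell among the other numbers, and MRPS18A, MRPS30 and MRPS36 stayed in the small subunit. Among large subunit genes numbered after bacterial proteins, 21 of 24 tested were higher and 1 was lower in G1 minus NS (median 0.39). Among those with other numbers, 11 of 17 were higher (median 0.31). In the small subunit, 5 of 11 with bacterial numbers (median 0.14) and 7 of 12 with other numbers (median 0.21) were higher. Leaving out every member whose exons overlap another gene, 18 of 24 large and 7 of 12 small subunit genes were higher and 1 and 0 were lower.

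Summed over members, the large subunit took 1871, 1924 and 1886 CPM in G1 libraries, 1582, 1595 and 1592 CPM in G7 libraries, and 1465, 1480 and 1437 CPM in NS libraries. The small subunit took 1255, 1272 and 1260 CPM with G1, 1150, 1162 and 1157 CPM with G7, and 1120, 1103 and 1080 CPM with NS. Neither sum overlapped between groups in TMM-scaled CPM. The sums were also taken as a percentage of each library's counts without TMM. The small subunit then took 0.119 to 0.125% with G1, 0.111 to 0.119% with G7 and 0.111 to 0.117% with NS. There G1 lay above NS, G1 and G7 met at this rounding, and G7 and NS overlapped. On that scale the large subunit took 0.178 to 0.189% with G1, 0.153 to 0.163% with G7 and 0.15 to 0.153% with NS. G1 lay above both other groups, and G7 and NS met at this rounding. The ratio of the sums was 1.5 ± 0.011 with G1, 1.37 ± 0.0022 with G7 and 1.33 ± 0.018 with NS (SD, n = 3 each). The sums hold the members as counted, so the 14 listed at 0 add nothing to them. They follow the symbols, so MRPS18A, MRPS30 and MRPS36 count in the small subunit. The ratio was not computed by place in the assembled ribosome.

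**Figure D4:**
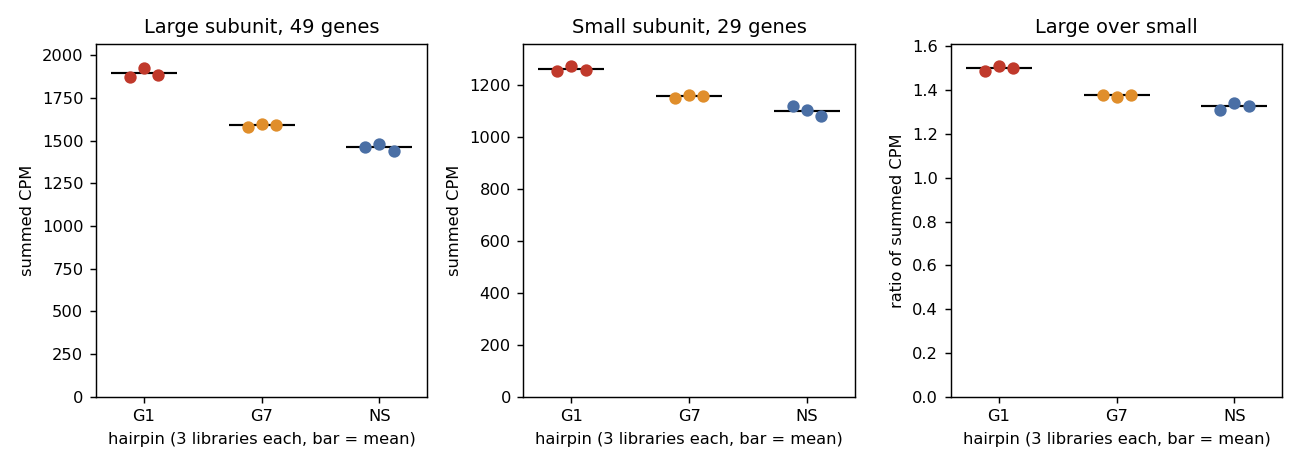
Summed TMM-scaled CPM of large subunit genes (left) and small subunit genes (middle) and their ratio (right) in each library, with G1, G7 and NS from left to right, the bar at the mean and each axis starting at 0. The ratio is 1.49 to 1.51 with G1, 1.37 to 1.38 with G7 and 1.31 to 1.34 with NS. Genes are grouped by symbol, with MRPS18A, MRPS30 and MRPS36 in the small subunit.

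The G7 libraries, in which more CBX5 RNA was left, were set against NS in the same fit. Of the large subunit genes 9 were higher (22%) and 0 lower, with a median log2 change of 0.11, and of the small subunit genes 4 were higher (17.4%) and 0 lower, with a median of 0.07. The share called among all genes was 22.7%, with 13.1% higher and 9.64% lower and a median of 0.01, against which the shares of higher members are to be read. In DESeq2, 6 and 3 were higher, and no member was lower at an unadjusted p under 0.05 in DESeq2 or in edgeR with TMM scaling and all libraries, while upper quartile scaling or leaving out G7 replicate 1 gave 1 large subunit gene lower at that level. The members called were MRPL11, MRPL13, MRPL16, MRPL24, MRPL28, MRPL33, MRPL36, MRPL37 and MRPL43, and MRPS7, MRPS15, MRPS23 and MRPS34. The comparison shares its NS libraries with G1 minus NS.

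MRPL28 reached similar levels with both hairpins. MRPL28 (chromosome 16, 366969 to 371289), a relative of bacterial L28, had 59.7, 54.9 and 54.5 CPM with G1, 58, 57.1 and 51.6 CPM with G7, and 45.9, 45 and 50.3 CPM with NS. Both hairpins lay above NS and overlapped each other. Its log2 change was 0.23 ± 0.062 in G7 minus NS (edgeR adjusted p = 0.0103) and 0.26 ± 0.063 in G1 minus NS (adjusted p = 0.00178), and the difference in G1 minus G7 was 0.02 ± 0.060 (adjusted p = 0.795). Its G7 call ended without G7 replicate 1 and without NS replicate 2. Exons of MRPL28 overlap those of TMEM8A on the same strand.

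Several of the G7 calls were close to the threshold. MRPL16 and MRPL43, with log2 changes of 0.17 and 0.22, lost the call under 13 alternatives each, MRPL33 and MRPS15 under 10 each and MRPS23 under 9. MRPL24 lost it without G7 replicate 2, NS replicate 1 or NS replicate 2, MRPS34 without G7 replicate 1 or NS replicate 2, and MRPS7 without G7 replicate 1. MRPL36, MRPL13, MRPL37 and MRPL11 kept it under every alternative run, and of these all but MRPL36 have exons that overlap another gene. Leaving out NS replicate 1 or NS replicate 2 took the large subunit count to 5. The small subunit count was 1 without G7 replicate 1, and 2 without G1 replicate 1, G7 replicate 2 or NS replicate 2.

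Members were also compared between the hairpins themselves. In G1 minus G7, 24 of 41 large subunit genes were higher, 1 was lower and the median log2 difference was 0.25, and 8 of 23 small subunit genes were higher, 0 were lower and the median was 0.12. Over all genes tested, 44.9% were called, 23.3% higher and 21.6% lower. No small subunit gene was lower at an unadjusted p under 0.05 in DESeq2 or in edgeR with TMM scaling and all libraries, while upper quartile scaling gave 2 at that level. The differences of the called genes ran from 0.22 to 0.49 in the large subunit and from 0.17 to 0.31 in the small subunit, with MRPL15, MRPL47, MRPS31 and MRPS34 among the most different by the naming rule. MRPL10 had a difference of -0.35 ± 0.050 in G1 minus G7 on the log2 scale (edgeR adjusted p = 1.75e-05).

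The other genes of mitochondrial gene expression were read from the same fit, and their counts stand beside shares over all genes of 30.4% higher and 28.7% lower with G1 and 13.1% higher and 9.64% lower with G7. Of 5 ribosome proteins with other symbols, GADD45GIP1 of the large subunit and AURKAIP1 and CHCHD1 of the small subunit rose by 0.54, 0.43 and 0.49 in G1 minus NS. DAP3 and PTCD3 of the small subunit were not called, at -0.07 and -0.00, although 1 gene of the list was lower under upper quartile scaling. Only GADD45GIP1 was called in G7 minus NS, at 0.29, and the count with G7 was 2 without G7 replicate 3 and 0 without NS replicate 3.

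Of 21 tested assembly factors, 10 were higher and 3 lower with G1 and 6 higher and 1 lower with G7, and upper quartile scaling gave 10 higher and 5 lower with G1. The 1 lower with G7 was not called without G7 replicate 1, G7 replicate 2, NS replicate 1 or NS replicate 2. C1QBP, a matrix protein needed for mitochondrial translation, averaged 224 ± 5.9 CPM with G1, 165 ± 5.97 CPM with G7 and 136 ± 1.81 CPM with NS, a log2 change of 0.72 with G1 and 0.28 with G7. The RNA helicase DHX30 changed by 0.50 and 0.26 with G1 and G7, and MALSU1, a factor of the late large subunit, by 0.70 and 0.27. Of 14 translation factors, 4 were higher and 3 lower with G1, close to the shares over all genes. With G7, 2 were higher and 1 lower, and 1 was higher without G1 replicate 1, G7 replicate 2 or any 1 of the NS libraries. Without G7 replicate 1, G7 replicate 2 or NS replicate 2, 0 were lower. Elongation factor TUFM had 260 ± 9.27 CPM with G1, 236 ± 7.89 CPM with G7 and 203 ± 5.16 CPM with NS and rose by 0.35 with G1. MTRF1L, a release factor, rose by 0.41, and OXA1L, which inserts the new proteins into the inner membrane, fell by 0.20.

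Of 15 mitochondrial tRNA synthetases, 5 were higher and 1 lower with G1 and 3 higher and 0 lower with G7. With G1, 33.3% were higher, near the 30.4% over all genes, and 6.67% were lower, against 28.7%. With G7, 20% were higher, against 13.1% over all genes, and 0% were lower, against 9.64%. With G7, 0 were lower in DESeq2 or at an unadjusted p under 0.05 in this fit, 1 was lower at that level under upper quartile scaling, and 1 was higher without NS replicate 1. IARS2, for isoleucine, and CARS2, for cysteine, each rose by 0.45 with G1. Of 13 genes of mitochondrial transcription and RNA processing, 9 were higher and 0 lower with G1. SLIRP, which stabilises mitochondrial messenger RNA, rose by 0.81, the tRNA methylation and processing subunit TRMT10C by 0.50 and the transcription and packaging factor TFAM by 0.42. With G7, 3 of the 13 were higher and 0 lower, SLIRP by 0.31 and TFAM by 0.19. With G7, 5 were higher without G7 replicate 3 and 1 was lower without G7 replicate 1. In DESeq2 and in edgeR with TMM scaling and all libraries, 0 were lower with either hairpin at an unadjusted p under 0.05, against 1 with G7 under upper quartile scaling or with no filter.

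Of 8 regulators of mitochondrial biogenesis, 5 were higher and 0 lower with G1. The coactivators PPARGC1B and PPRC1 rose by 0.50 and 0.37, and GABPA, a factor that binds the ETS motif, averaged 57.4 ± 1.81 CPM with G1, 48.6 ± 0.648 CPM with G7 and 47.6 ± 2.68 CPM with NS, a rise of 0.27 with G1. None was called with G7 in edgeR or DESeq2, where 2 and 0 were higher at an unadjusted p under 0.05, and 1 was called without NS replicate 3. Of 12 mitochondrial chaperones and proteases, 7 were higher with G1 and 1 with G7, and 0 were lower at an unadjusted p under 0.05 in DESeq2 or in edgeR with TMM scaling, against 1 with G1 under upper quartile scaling. The count with G7 was 0 without G7 replicate 1 and 2 without G7 replicate 3 or NS replicate 3. The matrix chaperonin HSPD1 averaged 1264 ± 43.1 CPM with G1, 932 ± 21.6 CPM with G7 and 866 ± 34.9 CPM with NS.

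The proteins made by mitochondrial ribosomes work beside nuclear OXPHOS subunits. Of 61 tested nuclear OXPHOS subunits, 50 were higher and 0 lower with G1, with a median log2 change of 0.40, and 30 were higher and 0 lower with G7, with a median of 0.19. At an unadjusted p under 0.05, 0 were lower in DESeq2 or in edgeR with TMM scaling and all libraries. With G7, 1 was called lower without G7 replicate 3 and 1 with no filter on low counts, and with G1 upper quartile scaling gave 1 lower at an unadjusted p under 0.05. NDUFS6 of complex I rose by 0.81, UQCRFS1 of complex III by 0.71 and COX7B of complex IV by 0.73 with G1. Of 68 tested cytosolic ribosomal proteins, 13 were higher and 6 lower with G1, with a median of 0.03, and 3 were higher and 16 lower with upper quartile scaling. The lower count was 1 without G1 replicate 1, 2 without NS replicate 3, and 3 without G1 replicate 3, G7 replicate 2 or NS replicate 1. RPS26, RPL35 and RPL24 rose by 0.47, 0.23 and 0.17 with G1 under TMM scaling, and RPL24 lost the call under upper quartile scaling. With G7, 2 were higher and 0 lower (median 0.04), and 0 were lower at an unadjusted p under 0.05 in DESeq2 or in edgeR with all libraries. The higher count with G7 was 10 without G7 replicate 3, 1 without G7 replicate 1, and 0 without G1 replicate 1, without NS replicate 1 or under upper quartile scaling.

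**Figure D5:**
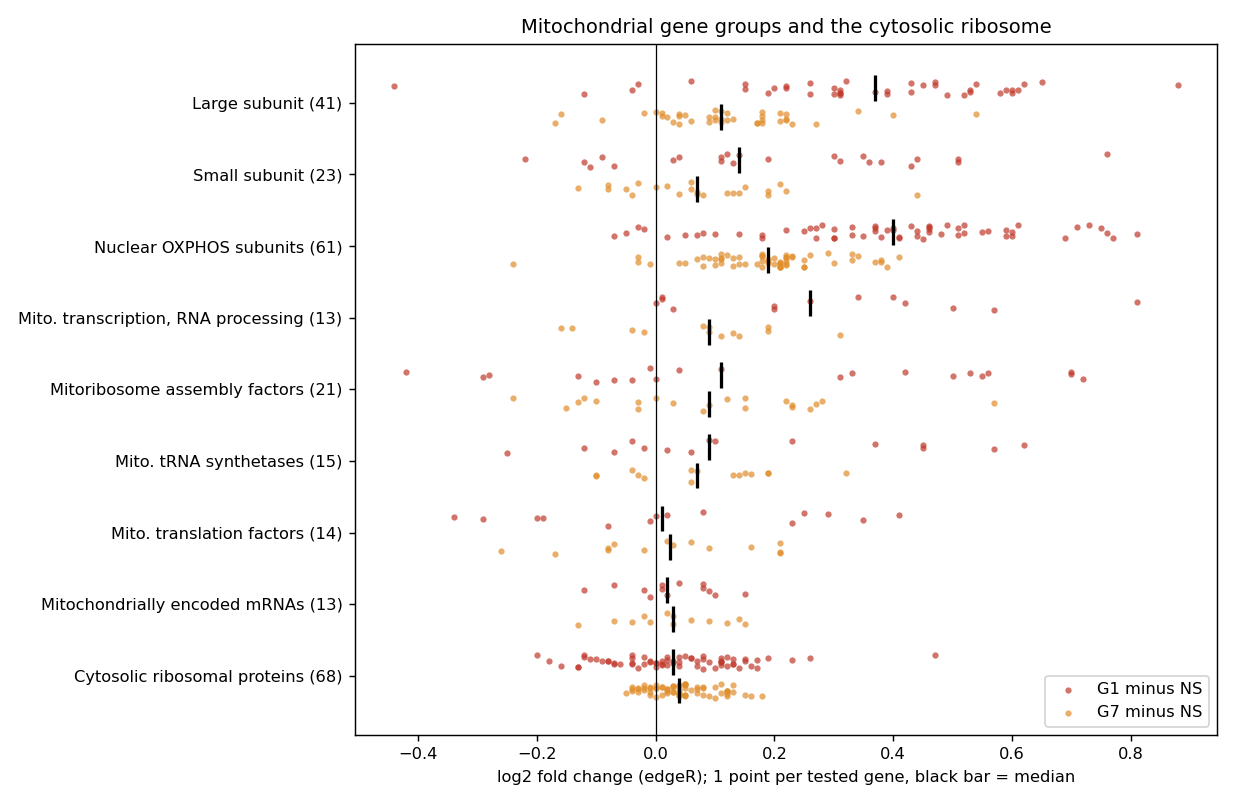
Log2 fold change of each tested gene (points) in 9 gene groups, G1 minus NS in red above G7 minus NS in orange, with a black bar at the median of each group and the number tested in brackets. Medians in G1 minus NS are 0.37 for the large subunit, 0.14 for the small subunit, 0.40 for nuclear OXPHOS subunits and 0.03 for cytosolic ribosomal proteins.

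The messenger RNAs that mitochondrial ribosomes translate showed no call. None of the 13 was called with G1 or G7 in edgeR, and 0 passed at an unadjusted p under 0.05 or in DESeq2. Their sum was 124382, 109370 and 143274 CPM with G1, 107817, 109957 and 164172 CPM with G7, and 112236, 137886 and 116504 CPM with NS. The groups overlapped, and G7 replicate 3 was highest. Without that library, 6 of the 13 were lower in G7 minus NS (median -0.20). Without the filter on low counts, 5 were higher with G1, and 3 were higher and 1 lower with G7.

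The ribosomal RNAs are sampled poorly by poly-A selection. MT-RNR1, of the small subunit, averaged 2456 ± 454 CPM with G1, 2218 ± 79.9 CPM with G7 and 1788 ± 152 CPM with NS, a log2 change of 0.46 with G1 and 0.31 with G7 (edgeR adjusted p = 0.000367 and 0.0217). MT-RNR2, of the large subunit, averaged 26900 ± 2359 CPM with G1, 33658 ± 5481 CPM with G7 and 32022 ± 3012 CPM with NS, a log2 change of -0.25 with G1 (adjusted p = 0.0321). The calls of MT-RNR1 with G7 and of MT-RNR2 with G1 ended in DESeq2. MT-RNR2 also lost its call without G1 replicate 1 (-0.24, adjusted p = 0.0898 in edgeR), G1 replicate 2 (-0.19, 0.131) or NS replicate 2 (-0.17, 0.176), and MT-RNR1 lost its G7 call without NS replicate 1 (0.28, 0.0859) or NS replicate 3 (0.27, 0.105).

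Members often share a promoter region with a gene on the other strand. By GENCODE gene starts, 29 members (37.2%) had a protein-coding gene of the opposite strand starting within 1000 bases, against 13.0% of protein-coding rows. In 20 of these pairs both genes were tested. Of 14 such members higher with G1, the partner was higher in 4, lower in 4 and not called in 6, near the shares of 30.4% higher and 28.7% lower over all genes. The pairs named here were chosen after their values were seen.

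MRPL36 and the complex I gene NDUFS6 start 34 bases apart by GENCODE. The RefSeq start of MRPL36, used for the stretch above, lies inside its GENCODE span and farther from NDUFS6. Both genes were higher, by 0.62 and 0.81 with G1 and by 0.34 and 0.38 with G7. MRPL18 and TCP1, a subunit of the cytosolic chaperonin, start 63 bases apart and rose by 0.54 and 0.83 with G1. MRPL47 and the complex I gene NDUFB5 start 36 bases apart, and MRPL47 changed by 0.60 with G1 while NDUFB5 had -0.03 (edgeR adjusted p = 0.658). MRPS34 and EME2, a subunit of a DNA endonuclease, start 52 bases apart and moved in opposite directions, by 0.51 and -0.88 with G1 and by 0.22 and -0.60 with G7, EME2 at 1.55 ± 0.311 CPM with G1 and 2.86 ± 0.114 CPM with NS. MRPL10 and LRRC46 start 93 bases apart, and both were lower with G1, by -0.44 and -0.43, LRRC46 at 3.95 ± 0.0813 CPM with G1 and 5.34 ± 0.481 CPM with NS.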

How the data were processed

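Poly-A RNA libraries of HCC827 cells, 3 each with hairpin G1, hairpin G7 and control hairpin NS, were analysed from the deposited table of raw read counts per Ensembl gene. Per the labels' protocols, dUTP marked the second strand. TopHat2 2.1.0, HTSeq 0.6.0 and build hg38 (GRCh38) were used, per the submitters' processing notes. The sources used here do not give the annotation release, the strand setting or the read filters. Symbols, gene types, coordinates and exon overlaps came from GENCODE 29, which held 57055 of 60675 identifiers; the others held 0.025% of the counts.

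Counts were fitted with edgeR 4.0.16 in R 4.3.3: filterByExpr, TMM scaling, 1 mean per group over all 9 libraries, and two-sided quasi-likelihood tests with Benjamini-Hochberg adjustment over 13264 genes (common dispersion 0.00217). The procedure was tested on simulated data in which few genes changed, in both directions and alike in G1 and G7. In the real data 59.1% of genes were called in G1 minus NS, so the simulation cannot check the scaling there. DESeq2 1.42.0, other scalings, no filter, and libraries left out in turn were alternatives. Replicates of a group differed by more than sampling noise (chi-square per degree of freedom 1.46 to 22.6) and were kept as separate samples.

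Members, gene lists and the naming rule were chosen with earlier results of these data known. Per subunit, the rule named the 3 largest rises and falls against NS and the 2 largest differences each way between hairpins, among members of at least 2 CPM, called, with groups that do not overlap. It added the 2 highest and 2 lowest per length, members not tested, 8 members of known place or role, and up to 3 genes per list with the smallest p in G1 minus NS. 1 gene that the rule named is not reported here. Other genes printed were chosen after their values were seen.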

Additional observations from a re-analysis of the deposited data

How the results depend on the processing

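No median of the members changed sign under any alternative, and 1 single-gene value reversed: MT-ND6 in G7 minus NS, not called at 0.03 with all libraries, was called at -0.26 without G7 replicate 3 (edgeR adjusted p = 0.0294). Upper quartile scaling moved the G1 minus NS medians to 0.28 (large subunit) and 0.06 (small), with 4 small subunit genes lower, the G7 minus NS large subunit median to 0.08 with 2 small subunit genes higher, and the G1 minus G7 medians to 0.19 and 0.06. It moved the median of all genes in G1 minus NS to -0.098, against -0.011 with TMM. Placement in the assembled ribosome gave 0.32 and 0.24 in G1 minus NS and 0.17 for the small subunit in G1 minus G7. Small subunit genes higher in G7 minus NS numbered 2 with only the 2 groups compared, and 2 without mitochondrially encoded genes. With no filter the small subunit median in G1 minus G7 was 0.15. The cause of these changes was not tested.

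Leaving out each library in turn gave large subunit medians of 0.31 to 0.40 in G1 minus NS, 0.09 to 0.13 in G7 minus NS and 0.23 to 0.28 in G1 minus G7. Small subunit medians were 0.15 to 0.18, 0.04 to 0.08 and 0.09 to 0.16 in the same order. Large subunit genes higher numbered 29 to 32, 5 to 10 and 21 to 27, and small subunit genes 10 to 12, 1 to 4 and 7 to 8. Leave-outs for the other gene lists and for genes called over the whole table were added after seeing the data. Genes called numbered 7095 to 8260, 2260 to 3321 and 5068 to 6036.

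Correlations between same-numbered libraries of different groups ran from -0.0763 to 0.199, and those between differently numbered libraries from -0.191 to 0.186. These ranges largely overlapped, and the replicate numbers of the labels were not used to pair the libraries in the main fit. With replicate number as a block, 32 large and 12 small subunit genes were higher in G1 minus NS, 10 and 4 in G7 minus NS and 25 and 8 in G1 minus G7. Low counts limit the 8 low members, and the 14 listed at 0 gave no value under any alternative.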
